A study of Mus musculus with 4 samples.

Results

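The 10 genes described here are grouped as neutrophil granule proteins: Camp, Ngp, Elane, Mpo, Prtn3, Ltf, Lcn2, S100a8, S100a9 and Ctsg. Among them, S100a8 and S100a9 encode cytosolic proteins and are counted with the others throughout. All 10 were taken by gene symbol from an array study of RNA that came down with Cpeb4 from red cell precursors of the mouse fetal liver. Each had 1 probe set, so there were 10 members among 23185 genes with a symbol, and all 10 passed the filter on low values, a mean log2 value of 3.844 over the arrays, which left 13911 genes for testing. Camp reached it only through the IP arrays, since its 2 controls averaged 3.80.

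The cells were erythroblasts, taken from E14.5 embryonic livers with magnetic beads against Ter119, which marks cells of the red lineage. From them came 2 biological replicates of a Cpeb4 immunoprecipitate (IP), made with the Magna RIP kit and an Abcam antibody against Cpeb4. A precipitate with rabbit IgG and a preparation of total input RNA, made with no antibody, were measured on 1 array each. The labels gave no strain, genotype or pooling of embryos, nor whether input, IgG and IP were made from 1 batch of cells. Levels are the deposited log2 expression values. A difference is the IP mean less a control, in log2 units, and 2-fold is a difference of 1. Depth has no counterpart on arrays, and their number limits the precision.

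Neutrophils pack antimicrobial proteins into granules that are filled in sequence while the cell matures. Azurophil granules are filled first, at the promyelocyte stage, with myeloperoxidase and serine proteases, and specific granules follow with lactoferrin, cathelicidin and lipocalin. The calcium-binding pair S100a8 and S100a9 fills the cytosol and forms calprotectin. In the fetal liver these genes belong to the granulocyte lineage, which Ter119 does not mark. Cpeb4 itself binds cytoplasmic polyadenylation elements in mRNA and alters translation.

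The sequence before the transcription start of 5 members is shown to identify the genes on which the results turn. Camp, Ngp and Ltf lie on chromosome 9 and are the specific granule genes with the highest differences from input. Prtn3 and Elane are next to each other among the protein-coding genes of chromosome 10 and took different positions against the controls. Each line gives the 250 bases before the start, 5′ to 3′ on the gene's strand, from RefSeq (GRCm38.p6). Capitals mark 3 short motifs looked for on both strands: GGAAGT, a site that ETS factors such as PU.1 can bind, AACGG, a site of MYB, and TTGCNNAA, a site of C/EBP factors. No 2 of the matches overlapped.
Camp, chr9:109849457-109849706, minus strand: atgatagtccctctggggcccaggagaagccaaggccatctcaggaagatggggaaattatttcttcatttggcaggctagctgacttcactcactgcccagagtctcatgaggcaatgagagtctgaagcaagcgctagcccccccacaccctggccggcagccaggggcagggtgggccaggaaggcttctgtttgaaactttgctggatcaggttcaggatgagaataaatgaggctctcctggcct
Ngp, chr9:110419558-110419807, plus strand: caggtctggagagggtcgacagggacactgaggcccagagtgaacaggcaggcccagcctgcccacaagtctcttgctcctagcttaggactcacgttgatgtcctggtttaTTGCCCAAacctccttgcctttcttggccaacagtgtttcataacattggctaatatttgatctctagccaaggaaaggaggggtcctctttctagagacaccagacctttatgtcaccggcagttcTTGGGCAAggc
Ltf, chr9:111019042-111019291, plus strand: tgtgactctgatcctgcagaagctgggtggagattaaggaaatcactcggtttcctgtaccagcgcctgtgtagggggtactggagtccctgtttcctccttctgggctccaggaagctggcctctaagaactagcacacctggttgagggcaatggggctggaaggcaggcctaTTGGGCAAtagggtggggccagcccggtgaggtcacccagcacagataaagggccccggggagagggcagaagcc
Prtn3, chr10:79879417-79879666, plus strand: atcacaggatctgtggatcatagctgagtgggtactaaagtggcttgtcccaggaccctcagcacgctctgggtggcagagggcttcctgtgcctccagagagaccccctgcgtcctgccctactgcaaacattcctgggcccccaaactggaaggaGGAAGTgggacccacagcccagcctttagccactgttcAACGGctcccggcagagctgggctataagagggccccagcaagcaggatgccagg
Elane, chr10:79886062-79886311, plus strand: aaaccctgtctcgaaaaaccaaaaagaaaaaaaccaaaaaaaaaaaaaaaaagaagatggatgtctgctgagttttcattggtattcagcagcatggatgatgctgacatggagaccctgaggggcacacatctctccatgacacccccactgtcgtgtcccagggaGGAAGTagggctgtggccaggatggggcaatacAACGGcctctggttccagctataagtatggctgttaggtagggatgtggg

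GGAAGT or its complement was present before 6 of the 10 members (all 4 azurophil genes, S100a8 and S100a9), against 19.7% of 32851 promoters of the same length. AACGG was present only before Elane and Prtn3 of the 10, against 14.53% of promoters. TTGCNNAA was present before Ngp, Ltf, Lcn2 and S100a9, against 9.56% of promoters. In Ngp and Ltf the match closest to the start read TTGGGCAA on the gene's strand. Prtn3 and Elane carried the first 2 motifs in the same order, at 93 and 55 bases before the start in Prtn3 and at 83 and 50 in Elane. Camp held none of the 3. The motifs were picked with these sequences in view. The matches describe the letters in these windows, and the arrays measured RNA, not the promoters.

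Most granule protein genes were higher in the Cpeb4 IP than in input RNA, and fewer were clearly higher than in the IgG precipitate. In both replicates, 6 of the 10 were at least 2-fold above input (Mpo, Camp, Ngp, Ltf, Lcn2 and S100a9), where 4.04% of all tested genes were. At least 2-fold above IgG were 4 of the 10 (Elane, Ctsg, Camp and Ltf), where 18.6% of all tested genes were. Camp and Ltf stood at least 2-fold above both controls, as 2.49% of all tested genes did. None was at least 2-fold below IgG or input, where 6.24% and 5.18% of tested genes were. These are differences between a precipitate and a control. In such bulk samples the number of neutrophils, the RNA per neutrophil and the share of it precipitated cannot be told apart.

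By limma, 9 of the 10 rose against input and none fell, where 9.39% of tested genes rose and 13.3% fell. Against IgG, 8 rose and none fell, where 29.2% of tested genes rose and 17.2% fell. The median difference of the 10 was 1.26 from input and 0.70 from IgG, beside -0.01 and 0.08 over all tested genes. Without Camp, which the filter kept only because it was high in the IP, 8 of 9 rose against input and 7 of 9 against IgG, with medians of 1.18 and 0.53. Of these 9, 5 were at least 2-fold above input and 3 above IgG. The members' IP replicates lay within 0.11 of each other, and 4 of them (Mpo, Elane, Prtn3 and S100a8) had equal values on both IP arrays, as did 21.8% of tested genes. Such ties give limma a spread near 0: against IgG it called 80.1% of tied genes and 37.0% of the others. Against input it called 54.0% of tied genes and 13.9% of the others. A common-spread test, with 1 IP standard deviation per twentieth of expression, tied genes included, was therefore run beside limma. By it 7 of the 10 rose against IgG and 9 against input, where 39% and 14.7% of tested genes rose. None of the 10 fell, where 22.3% of tested genes fell against each control. Its intervals or p-values are given below for Ltf, Mpo, Elane and S100a8 alone. Both tests take their spread from the 2 IP arrays and apply it to the lone control arrays as well. Both comparisons share the IP arrays, so they are not separate evidence.

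**Figure D1:**
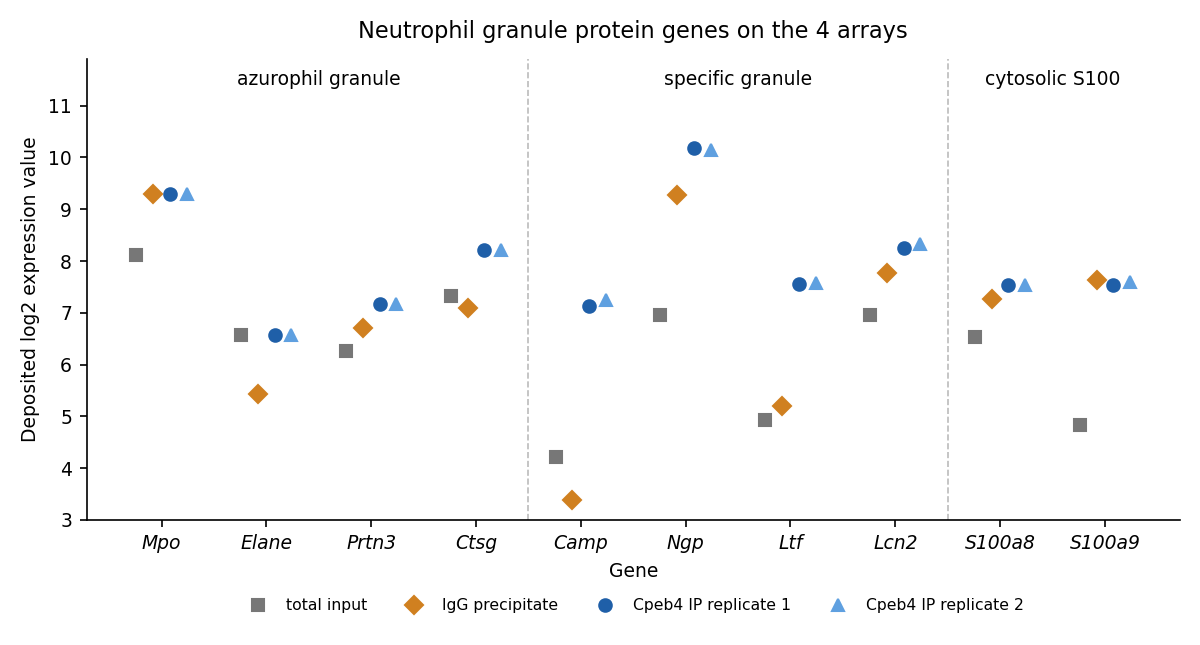
Deposited log2 expression value (vertical axis) of each of the 10 genes (horizontal axis) on the 4 arrays; each marker is 1 array and there are no error bars. Camp and Ltf have both IP arrays far above both controls, Ngp and S100a9 have IgG near the IP and input far below, and for Elane input and IP coincide while IgG is lower.

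The 4 specific granule genes were all at least 2-fold above input, but spread widely against IgG. Camp encodes the cathelicidin precursor, from which an antimicrobial peptide is cut. Its value was 4.22 in input, 3.38 in IgG, and 7.14 and 7.25 in IP replicates 1 and 2. Both IP arrays were thus high and both control arrays low. The IgG value was below the filter level and that array's median of 4.49, and no detection calls were given, so it was not shown to be above background. The IP mean of 7.19 ± 0.08 (SD, n = 2) was 14.1-fold over IgG (difference 3.81, limma adjusted p = 0.0133) and 7.85-fold over input (2.97, limma adjusted p = 0.0284). Against the filter level in place of the IgG value, an alternative chosen after seeing the data, it was 10.2-fold (3.35). Because the filter kept Camp through its IP values, its adjusted p-values add no support to its size.

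Ltf encodes lactoferrin, the iron-binding protein of specific granules. Its value was 4.93 in input, 5.20 in IgG, and 7.57 in each IP replicate. The 2 controls were close to each other, 0.27 apart, and the IP stood well above both. It rose 5.16-fold over IgG (2.37, limma adjusted p = 0.00629) and 6.23-fold over input (2.64, limma adjusted p = 0.0164). The common-spread intervals were 2.05 to 2.68 against IgG and 2.33 to 2.95 against input.

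Ngp encodes neutrophilic granule protein, a relative of the cathelicidins. Its value was 6.95 in input, 9.28 in IgG, and 10.18 and 10.14 in the IP replicates. The order was input, IgG, IP, with the wide step between input and IgG. Ngp rose 9.25-fold over input (3.21, limma adjusted p = 0.0167), the highest difference from input among the 10, but 1.84-fold over IgG (0.88, limma adjusted p = 0.0205).

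Lcn2 encodes lipocalin, which binds the iron carriers of bacteria. Its value was 6.95 in input, 7.76 in IgG, and 8.26 and 8.32 in the IP replicates. The same order held with smaller steps. It rose 2.53-fold over input (1.34, limma adjusted p = 0.034) and 1.44-fold over IgG (0.53, limma adjusted p = 0.0485). The call against IgG was lost with no filter (limma adjusted p = 0.0572) and, together with that against input, with a trended and robust prior (limma adjusted p = 0.0776 and 0.0547).

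**Figure D2:**
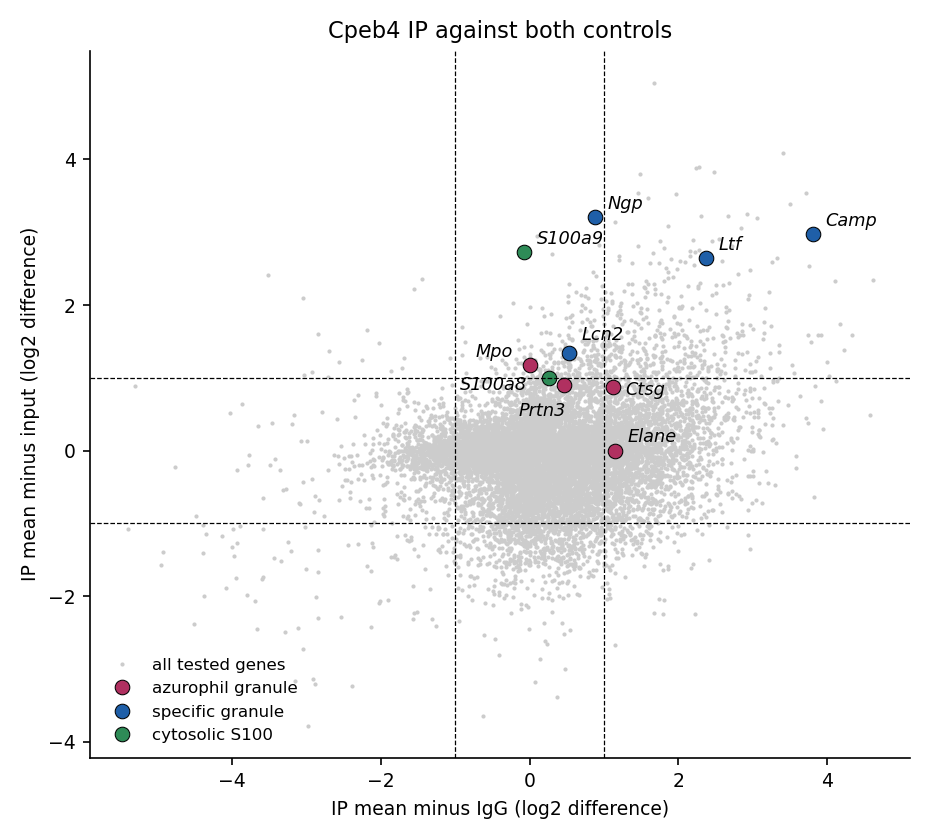
Mean of the 2 IP arrays minus IgG (horizontal axis) and minus input (vertical axis), in log2 units, for all tested genes (grey) and the 10 granule protein genes (coloured by class); dashed lines mark 2-fold. Camp and Ltf lie past the lines on both axes, Ngp and S100a9 past the input line only, and Elane and Ctsg past the IgG line only.

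Of the 4 azurophil granule genes, 3 rose against each control, while Mpo stood at its IgG level and Elane at its input level. Mpo encodes myeloperoxidase, which makes hypochlorous acid. Its value was 8.13 in input and 9.30 on the IgG array and both IP arrays. IgG and IP were equal, and only input was lower. The rise over input was 2.26-fold (1.18, limma adjusted p = 0.0164), and the difference from IgG was 0.00, with a common-spread interval of -0.16 to 0.16. Equal values on IgG and both IP arrays occurred in 3.34% of tested genes.

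Elane encodes neutrophil elastase. Its value was 6.58 in input and in both IP replicates, and 5.43 in IgG. Here IgG alone was low. Elane rose 2.21-fold over IgG (1.14, limma adjusted p = 0.00629) and differed from input by 0.00, with a common-spread interval of -0.31 to 0.31. It was the member that did not rise against input, and 7.46% of tested genes had such equal values on input and both IP arrays.

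Prtn3, the neighbour of Elane, encodes proteinase 3. Its value was 6.27 in input, 6.71 in IgG and 7.17 in each IP replicate. The IP was highest and input lowest. The rise was 1.87-fold over input (0.90, limma adjusted p = 0.0164) and 1.38-fold over IgG (0.46, limma adjusted p = 0.00706).

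Ctsg encodes cathepsin G, another serine protease of these granules. Its value was 7.33 in input, 7.09 in IgG, and 8.21 and 8.22 in the IP replicates. The controls lay 0.24 apart, below both IP arrays. Ctsg rose 2.17-fold over IgG (1.12, limma adjusted p = 0.00711) and 1.84-fold over input (0.88, limma adjusted p = 0.0174).

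S100a8 and S100a9, also neighbours in the genome, were higher than input in both precipitates and little different between IP and IgG. S100a9 had a value of 4.83 in input, 7.64 in IgG, and 7.53 and 7.59 in the IP replicates. The IgG array was above both IP arrays, and input was far below all 3. It rose 6.61-fold over input (2.73, limma adjusted p = 0.0185), while against IgG, at -0.08, it did not pass (limma adjusted p = 0.294).

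S100a8 had a value of 6.53 in input, 7.27 in IgG and 7.53 in each IP replicate. It lay just inside the 2-fold mark against input, with a difference of 0.998 (1.997-fold, limma adjusted p = 0.0164). Its difference of 0.26 from IgG passed by limma (adjusted p = 0.0105), on tied IP arrays, and did not pass with the common spread (adjusted p = 0.0673).

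The deposited log2 value was higher on the IgG array than on the input array for 7 of the 10 genes, at any size, where 41.5% of tested genes were higher. These are levels on each array, not amounts of RNA. Those at least 2-fold higher in IgG than in input were S100a9 (2.80), Ngp (2.33) and Mpo (1.18), where 7.93% of tested genes were. Elane was lower (-1.14), as were 23.9% of tested genes by at least 2-fold, and Camp was 0.84 lower. Neither array has a replicate, so these differences are given as values and no test was run.

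The position against IgG depended on how the arrays were scaled. Values on the IgG array were spread less than on the others, with an SD of 1.74 over all probe sets against 2.05 to 2.13. After quantile normalization of the 4 arrays again, which gives them the same distribution, 5 members rose against IgG (Elane, Ctsg, Camp, Ngp and Ltf) and 3 fell (Mpo, S100a8 and S100a9), where 30.9% of tested genes rose and 29% fell. S100a9 then fell by 0.80, S100a8 fell by 0.47 and Mpo fell by 0.47. Prtn3 (-0.23) and Lcn2 (-0.19) turned negative without passing. The members' median difference from IgG was then 0.09, beside 0.03 over all tested genes, and -0.19 without Camp.

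Camp and Ltf kept their place, with differences of 3.96 and 2.20 from IgG. They were the members at least 2-fold above IgG under both scalings. Against input the same 9 members rose under both, where 8.91% of tested genes rose after the second. By size, 8 members were then at least 2-fold above input, Ctsg and S100a8 having joined, where 4.28% of tested genes were. That normalization put 6 members at least 2-fold higher in IgG than in input, where 11% of tested genes were.

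**Figure D3:**
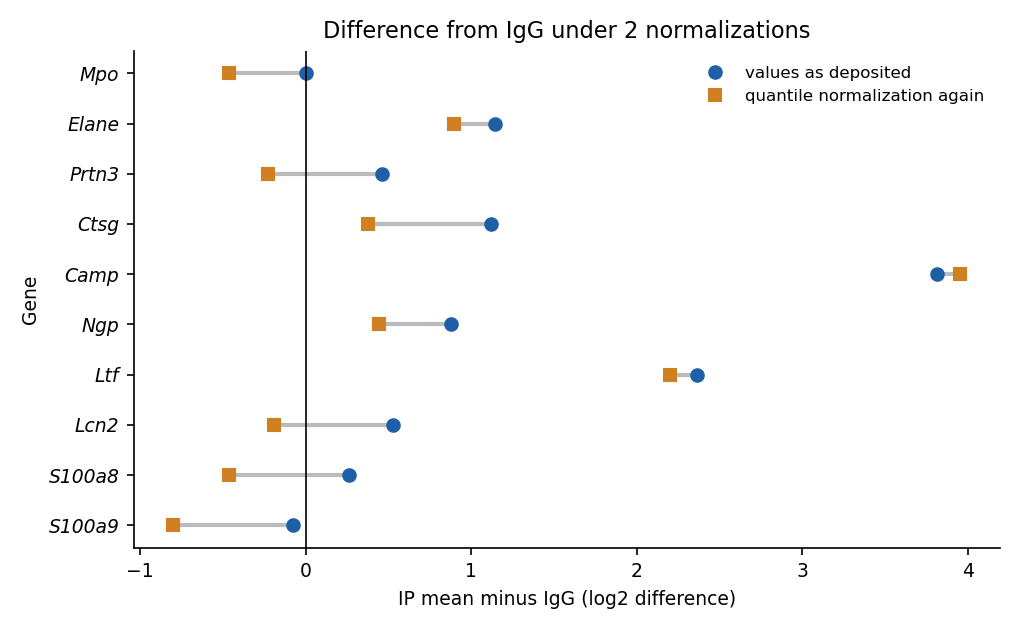
Mean of the 2 IP arrays minus the IgG array (horizontal axis, log2 units) for each of the 10 genes (vertical axis), with values as deposited (circles) and after quantile normalization again (squares). Camp, Ltf, Ngp, Ctsg and Elane stay right of 0, while Prtn3, Lcn2 and S100a8 cross it.

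Other granule proteins were examined as a list of 39 genes, of which 34 were on the array and 26 were tested. Against input, 9 were at least 2-fold higher (34.6%, beside 4.04% of all tested genes) and none lower. By limma 13 rose (50%, beside 9.39%) and 1, Ctsb, fell (3.85%, beside 13.3%). Ctsb and, of those that rose, Mmp8, Hp, Slpi, Cd177, Prg2, Epx, Gsn and Cyba had equal values on both IP arrays. Against IgG, 7 were at least 2-fold higher (26.9%, beside 18.6% of all tested genes) and none lower. By limma 14 rose against IgG (53.8%, beside 29.2%) and 4 fell (Slpi, Cd177, Epx and Mmp25), which at 15.4% was near the 17.2% of all tested genes. Their median difference was 0.74 from input and 0.58 from IgG, and 0.71 and 0.27 after quantile normalization again. Those at least 2-fold above both controls numbered 5: Ceacam1, Olfm4, Anxa1, Cd63 and Stfa1.

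Olfm4, the olfactomedin of a subset of specific granules, had values of 5.48 in input, 6.45 in IgG, and 8.13 and 8.39 in the IP. Ceacam1, a membrane protein carried in granules, had 4.86, 5.19, 7.25 and 7.56. Neither passed by limma against IgG (adjusted p = 0.0584 and 0.0576) or input (adjusted p = 0.0617 and 0.0781). Each was higher on both IP arrays than on either control.

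Cd63, a membrane protein of azurophil granules and lysosomes, rose 3.86-fold over input (limma adjusted p = 0.0164) and 2.98-fold over IgG (limma adjusted p = 0.00658). Anxa1, annexin A1, rose 3.88- and 2.09-fold, and Stfa1, a stefin that inhibits cysteine proteases, 3.80- and 2.08-fold. At the low end, Epx, the eosinophil peroxidase, was 0.62 above input and 0.80 below IgG, and Mmp25, a membrane metalloproteinase, was 0.04 above input and 0.36 below IgG.

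Of the genes that activate or inhibit granule proteases, 10 of 11 were on the array and 7 were tested. Against input 3 rose (Cst7, Cstb and Timp2), or 42.9%, beside 9.39% of all tested genes, and none fell. Against IgG these 3 and Ctsc rose, or 57.1%, beside 29.2%, and none fell. Ctsc, the dipeptidyl peptidase that activates elastase, proteinase 3 and cathepsin G, had values of 6.71 in input, 6.14 in IgG, and 7.597 and 7.67 in the IP. It rose 2.82-fold over IgG (limma adjusted p = 0.0224). Its level was 1.89-fold that of input, which missed the threshold (limma adjusted p = 0.0563). Serpinb1a, an inhibitor of the same proteases, was 1.43 above input and 1.16 above IgG and passed in neither.

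Regulators and receptors of granulocytes numbered 32, of which 31 were on the array and 28 were tested. Against input 8 were at least 2-fold higher (28.6%, beside 4.04% of all tested genes), and limma had 9 up (32.1%, beside 9.39%) and 0 down. Among the 8, Clec4d, at 3.15 in input and 4.14 in IgG, reached the filter only through its IP arrays. Against IgG 7 rose (25%, beside 29.2% of all tested genes) and 2 fell (Csf2rb and Cxcr1). At least 2-fold above IgG were 3 (Cbfb, Ikzf1 and Ly6c2), or 10.7%, beside 18.6% of all tested genes. Cbfb, the partner of Runx1, rose 3.89-fold over input and 4.03-fold over IgG. Ly6c2, a surface protein of myeloid precursors and monocytes, rose 1.82- and 3.07-fold.

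The C/EBP factors and Gfi1 of this list differed among themselves. Cebpa, which early granulocyte development needs, was 1.53 above input and 0.89 above IgG and passed against neither (limma adjusted p = 0.0792 and 0.0874). Cebpe, the C/EBP factor needed for specific granules, had 5.47 in input and 5.94 on the other 3 arrays. Cebpb differed by -0.002 from input and was 0.30 above IgG (limma adjusted p = 0.0113 against IgG). Cebpd was 0.33 above input and 0.05 above IgG and passed against neither. Gfi1, a repressor needed in granulocytes, had 5.61 in input, 6.25 in IgG, and 5.95 and 5.85 in the IP. Genes used as neutrophil markers differed as well. Itgam, an integrin subunit, rose by 2.26 over input and 0.98 over IgG (limma adjusted p = 0.0219 and 0.025). Cxcr2, a chemokine receptor, was 1.16 above input and 0.96 above IgG and passed in neither. Ly6g, Retnlg and Chil3 did not reach the filter, at 2.45 to 3.74 over the 4 arrays. The genes of this paragraph were singled out after their values were seen.

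Markers of several other blood and liver cells were also higher in the IP than in input. The linear values of the 10 granule protein genes summed to 1031 in input, 2153 in IgG, and 3332 and 3333 in the IP. Those of all tested genes summed to 2.34e+06 in input, 1.635e+06 in IgG, and 2.14e+06 and 2.17e+06 in the IP, so the arrays differed in their totals. Megakaryocyte and platelet markers, of which 13 of 15 were measured, summed to 1381, 2569, 5810 and 6129 on the same arrays. Of these 13, 11 were at least 2-fold above input, 7 above IgG and 7 above both. Itgb3, the platelet integrin beta subunit, was 3.88 above input and 2.24 above IgG, and Vwf, von Willebrand factor, 3.05 and 2.84. At the low end, Gp9 was 0.73 above input and 0.99 above IgG, and Gp1bb 0.08 and 0.64. Monocyte and macrophage markers (19 of 20 measured) summed to 366 in input, 667 in IgG, and 817 and 924 in the IP. Of the 14 tested, 3 were at least 2-fold above both controls (Adgre1, Csf1r and Mpeg1), or 21.4%, beside 2.49% of all tested genes. Adgre1 was 2.90 above input and 2.19 above IgG, and Csf1r 1.84 and 1.94. By limma none rose against IgG and 4 fell (Ly86, Fcgr1, C1qb and Siglec1), or 28.6%, beside 17.2% of all tested genes. All 4 had equal values on both IP arrays. The median difference of the 14 was -0.07 from IgG and 0.79 from input.

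Hepatocyte markers (13 of 14 measured) summed to 206 in input, 341 in IgG, and 641 and 729 in the IP. Of the 8 tested, 3 were at least 2-fold above input (Alb, Afp and Trf) and 2 above both controls. Afp, alpha-fetoprotein, was 3.23 above input and 2.30 above IgG, and Alb 3.47 and 1.60. At the low end, Ttr was 0.15 above input and 0.14 above IgG, and Hnf4a differed by -0.004 from each. Erythroid markers (18 of 24 measured, all 18 tested) summed to 33543 in input, 25630 in IgG, and 26363 and 26457 in the IP. The sum over all tested genes was likewise lower in IgG and the IP than in input, and lowest in IgG, so a lower sum was not particular to these markers. None of them was at least 2-fold above IgG, 1 was above input (Hbb-y, an embryonic globin), and 4 were below input (Gata1, Klf1, Rhd and Epb42). Klf1, the erythroid transcription factor, fell by 1.71 from input. Red cell markers such as Slc4a1, the anion exchanger, were present on every array, at 11.94 to 12.20.

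The part of other cell types in the granule gene results was not tested. The markers of mast cells, basophils and eosinophils (6 tested) had 1 gene at least 2-fold above input, the tryptase Tpsb2, and none above IgG. Tpsb2, at 3.27 in input and 4.33 in IgG, reached the filter only through its IP arrays, as Camp did. Lymphocyte markers (3 tested) had none above either, and endothelial markers (6 tested) had 1, Pecam1, above both. Stem and progenitor markers (8 tested) had 3 above input, Kit, Cd34 and Flt3, and 2 above IgG, Cd34 and Meis1. Of all tested genes, 4.04% were at least 2-fold above input and 18.6% above IgG.

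**Figure D4:**
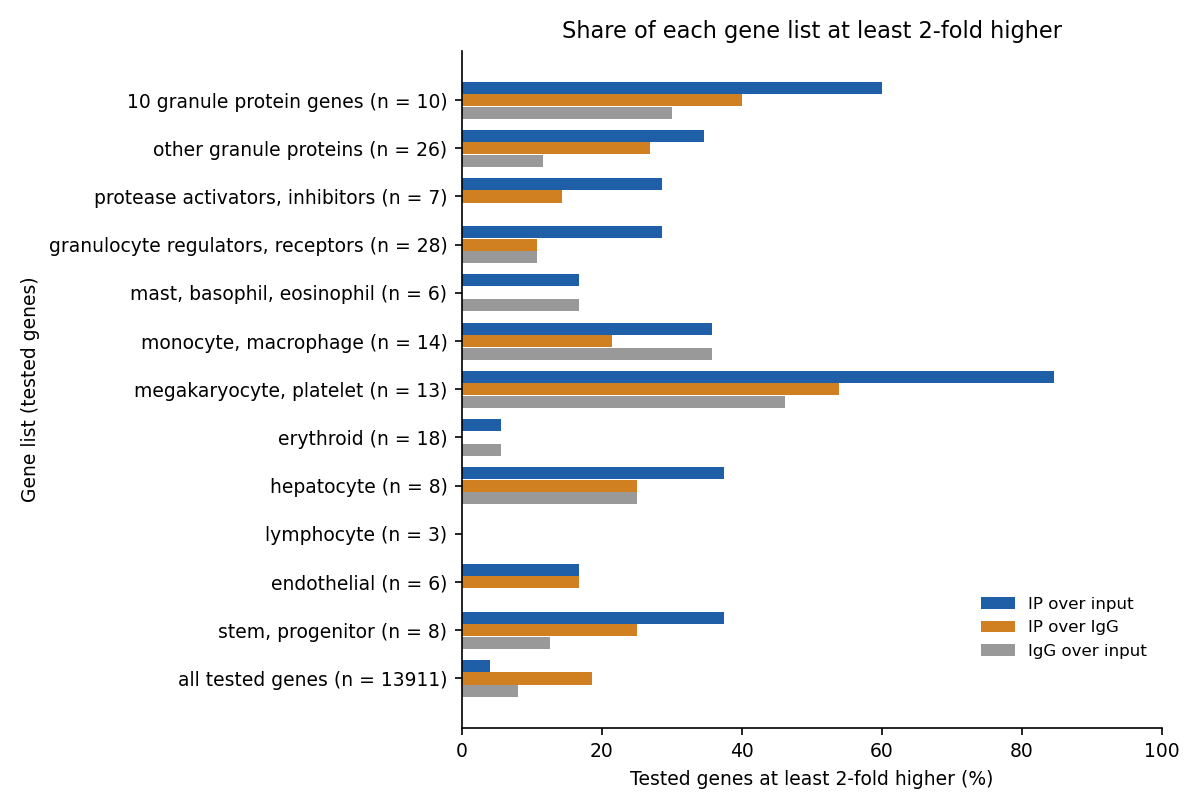
Percent of the tested genes of each list (vertical axis, number tested in brackets) that were at least 2-fold higher (horizontal axis): IP over input and IP over IgG in both replicates, and IgG over input on 1 array each. The granule protein genes reach 60%, 40% and 30%, megakaryocyte and platelet markers 84.6%, 53.8% and 46.2%, and all tested genes 4.04%, 18.6% and 7.93%.

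Genes of like pattern were sought by the distance between values centred per gene over the 4 arrays, which describes 4 points and carries no test. Nearest to Camp were Igsf6 (distance 0.42), Tubb1 (0.44), Tmem123 (0.51), AI504432 (0.53) and Itga6 (0.53). Tubb1 is the tubulin of platelets and Itga6 an integrin subunit. Of the other members, Ltf was the closest to Camp, at rank 38 of the tested genes, and S100a9 the farthest, at rank 5249.

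Nearest to Ngp, the member with the highest mean value, were Ppbp (0.28), Fyb (0.36), Alox12 (0.53), Pf4 (0.55) and Gp6 (0.63). Ppbp and Pf4 are chemokines of platelet granules, Gp6 is the platelet collagen receptor and Alox12 the platelet lipoxygenase. S100a9 ranked 14 and Camp 4032. Ppbp, for example, had values of 6.97 in input, 8.96 in IgG, and 10.05 and 10.17 in the IP, beside 6.95, 9.28, 10.18 and 10.14 for Ngp.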

How the data were processed

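RNA was measured on 4 Affymetrix arrays: 2 Cpeb4 IP replicates, 1 IgG and 1 input. The deposited values are log2 expression values, made by the authors with RMA and the affy package, per the submitters' processing notes. Versions, settings and genome build are not given in the sources used here, so whether quantile normalization was applied is not stated. Probe sets carry Entrez numbers. Of 25206, 23185 had a symbol and 2021 had none in the array's annotation, which can be old. The number of symbols held by several probe sets was 0.

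Genes with a mean at or above the 40th percentile of named genes entered a fit in R 4.3.3 by limma 3.58.1, on 3 groups with 1 residual degree of freedom. Benjamini-Hochberg adjustment ran over all 13911 genes, and a gene passed below 0.05. The size rule asks for 2-fold in both IP replicates. The fits were tested on simulated data with and without ties (within 1e-09). With ties limma called 11.21% of unchanged genes and 30% to 60% of genes raised by 1 to 3 log2 units. Without ties it called 0.095% and 96% to 100%. Sizes are therefore given beside limma. P-values measure only the spread between the IP arrays.

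The members, the 11 other lists, holding 198 genes, and the tests were chosen with earlier results of these data known. Of the listed genes, 21 were not found by symbol. Genes picked by rule were all members and the 2 highest and 2 lowest of each list by IP minus the mean of both controls. Added to these were the granule and protease genes at least 2-fold from both, and the 5 genes nearest to Camp and to the member with the highest mean. Not all genes so picked from the lists are named above. Other genes, such as those that make up small counts, and Slc4a1, were picked after their values were seen. Promoters matched for 10 of 10 members.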

Additional observations from a re-analysis of the deposited data

How the results depend on the processing

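Of the 10 members, the same 9 rose against input under every limma setting except a trended and robust prior, which lost Lcn2. Against IgG, quantile normalization again changed the member counts from 8 up and 0 down to 5 and 3. It turned Prtn3 (-0.23), Lcn2 (-0.19) and S100a8 (-0.47). Those at least 2-fold above IgG went from 4 to 2 under it and at 4-fold. Members at least 2-fold higher in IgG than in input went from 3 to 6 under it and to 5 at 1.5-fold, and those lower from 1 to 2 at 1.5-fold and 0 at 4-fold. The causes were not tested, beyond thresholds that count fewer or more genes by construction.

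Over all tested genes, those that fell against IgG numbered 4885 with no filter, 927 with the 60th percentile filter and 4032 after quantile normalization again, against 2392. Those at least 2-fold lower than IgG were 1407, 402 and 1305 in these settings, against 868, with 2172 at 1.5-fold and 119 at 4-fold. At least 2-fold higher than IgG were 4167 at 1.5-fold and 574 at 4-fold, against 2588. Against input, 1306 rose, but 2044 with the common spread and 2068 at an adjusted p below 0.1, and 1845 fell, but 3107 with the common spread. At least 2-fold above input were 562, with 1226 at 1.5-fold and 102 at 4-fold, and below it 721, with 1916, 42 and, after quantile normalization again, 472.

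IgG over input gave 1103 genes at least 2-fold higher and 1852 with no filter, 505 with the 60th percentile filter, 2623 at 1.5-fold and 143 at 4-fold. It gave 3329 lower, and 1936 after quantile normalization again, 5039 at 1.5-fold and 748 at 4-fold. No IP replicate could be left out of limma, since no residual degree of freedom remains. By size alone, leaving out either changed no member count by over 1.5 times. No paired analysis was possible because the control groups have 1 array each and their labels carry no replicate number. A control array that stands apart, such as IgG, cannot be told from its condition.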
